A study of Mus musculus with 2 samples.

Results

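The 9 genes examined here encode subunits of the AMPA and NMDA receptors, the glutamate-gated ion channels of excitatory synapses. They were chosen by name, Gria1 to Gria4 for the AMPA receptor and Grin1 and Grin2a to Grin2d for the NMDA receptor, and were 9 of 21938 protein-coding genes in the annotation (GENCODE M21, build mm10). Each was described by the DNase-seq peaks in its gene body and 50 kb on each side. Chromatin accessibility was measured by DNase-seq, which sequences DNA where the enzyme DNase I cuts most readily. The cells were MN1, a mouse line (strain B6NCrl) that the labels call immortalized. There was 1 group of 2 biological replicates with 1 library each, called replicate 1 and replicate 2. The labels name no treatment, genotype or tissue for the line, and its age is given as unknown. With 1 group there was no contrast between conditions, so the values below are a description and no test was run.

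AMPA receptors open within milliseconds of glutamate binding and carry most fast excitatory current. NMDA receptors also need glycine or D-serine and a depolarised membrane, and they let calcium in. Every NMDA receptor contains the GluN1 subunit, encoded by Grin1, together with other subunits that set its kinetics. Open promoters and enhancers of a gene are usually found as DNase I peaks, but a peak does not show that the gene is transcribed, and transcription was not measured.

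Replicate 1 held 170600 distinct peaks and replicate 2 held 162983, and all peaks on the main chromosomes were used with GRCm38 annotation. A peak was called shared where at least 1 bp of it lay in a peak of the partner library, counted on the list of replicate 1. Over the whole genome 67.1% of peaks were shared in replicate 1 and 70.2% in replicate 2. Each peak carries the authors' own score between 1 and 150, which served here only as a rank inside each library. A percentile is the share of that library's peaks with the same or a lower score. Promoters of all 7 neuronal marker genes examined held a peak in both libraries, among them Tubb3, Snap25 and Map2. The same was true of 4 of 5 motor neuron markers, with no promoter peak at Mnx1, and of 2 of 5 markers of glutamatergic neurons. It was also true of 1 of 4 astrocyte markers (Gfap), 1 of 4 microglial markers (Cx3cr1) and none of 4 oligodendrocyte markers. Over all protein-coding genes the share was 59.2%. Some markers had a promoter peak in 1 library alone: the glutamatergic Neurod6 in replicate 1, and the astrocyte Aqp4 and the microglial Aif1 and Csf1r in replicate 2. Read depth is unknown.

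The promoters of Grin1, Gria2 and Grin2d held a DNase I peak in both libraries. Sequence up to 1 kb to either side of any annotated start site counted as promoter. These were 3 of the 9 receptor genes, against 59.2% of all protein-coding genes. Gria3 had a promoter peak in replicate 1 alone, a state found in 3.55% of all genes. Gria1, Gria4, Grin2a, Grin2b and Grin2c had none in either library, 5 of 9 against 37.2% of all genes. Hotspots are the regions of enriched cutting deposited beside the peaks. Their median widths in these windows were 262.5 and 246 bp in replicates 1 and 2. They gave the same 3 genes, against 59.4% of all genes. Every peak in these windows overlapped a hotspot of its own library, so the hotspots are not a separate line of support. By receptor type, the 3 genes were 1 of 4 AMPA genes and 2 of 5 NMDA genes.

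Grin1 had the strongest promoter peak of the 9 genes when the percentiles of both libraries were averaged. In replicate 2 alone, the best promoter peak of Gria2 ranked higher, at percentile 90.5. Grin1 encodes the subunit that every NMDA receptor contains, and lies at chr2:25291181-25319187 on the minus strand. The Grin1 peak scored 110 in replicate 1 (chr2:25319136-25319285, percentile 90.1) and 105 in replicate 2 (chr2:25319116-25319265, percentile 89.6). Its centre lay 24 bp and 4 bp upstream of the outermost start site in replicates 1 and 2. A weaker shared peak, 1.08 kb inside the gene in replicate 1, scored 23 and 18. Each library also had 1 promoter peak of its own, with a score of 46 in replicate 1 and 26 in replicate 2. The 4 start sites further inside the gene had no peak within 1 kb.

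Gria2 had the most peaks at its own promoter, 7 in replicate 1 and 6 in replicate 2. It encodes GluA2, the subunit whose edited pore makes AMPA receptors nearly impermeable to calcium, and lies at chr3:80681450-80802835 on the minus strand. In replicate 1 the scores from the most upstream peak to the most downstream one were 23, 48, 79, 85, 39, 32 and 31. In replicate 2 they were 29, 37, 108, 38, 34 and 35. Both series peaked at the start site, where the best peak stood at percentile 79.2 in replicate 1 (chr3:80802776-80802925) and 90.5 in replicate 2 (chr3:80802836-80802985). Inside the gene, a shared peak 1.64 kb from the start site in replicate 1 scored 89 and 88 in replicates 1 and 2, and another at 2.30 kb scored 73 and 81. Both lie in sequence that retained-intron transcripts of Gria2 count as exon and that overlaps no exon of a protein-coding transcript. In replicate 1 the score of 89 was above that of any peak at the promoter itself, whereas in replicate 2 the promoter peak of 108 was the highest. A pair of weak shared peaks lay 34.8 and 35.1 kb upstream, with scores of 31 and 35 in replicate 1 and 24 and 29 in replicate 2. The peak farthest inside the gene scored 38, in replicate 1 alone, and was centred 2.70 kb from the start site. Beyond it the gene body held no peak in either library.

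The 250 bases upstream of the RefSeq start site are shown for 4 of the 5 members whose promoters the RefSeq table holds, 2 with a peak in both libraries (Grin1 and Gria2) and 2 with none (Gria4 and Grin2c). The fifth, that of Grin2d, lies in an annotated UTR and is not shown. Each is written 5′ to 3′ on the strand of the gene, on GRCm38.p6. Capitals mark matches to any of the 7 motifs searched.
Grin1, chr2:25319188-25319437, minus strand: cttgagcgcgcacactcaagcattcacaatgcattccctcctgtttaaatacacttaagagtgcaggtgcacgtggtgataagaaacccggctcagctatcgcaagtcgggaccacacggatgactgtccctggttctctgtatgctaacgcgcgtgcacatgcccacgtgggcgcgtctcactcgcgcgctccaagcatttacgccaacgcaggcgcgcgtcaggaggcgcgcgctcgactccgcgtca
Gria2, chr3:80802836-80803085, minus strand: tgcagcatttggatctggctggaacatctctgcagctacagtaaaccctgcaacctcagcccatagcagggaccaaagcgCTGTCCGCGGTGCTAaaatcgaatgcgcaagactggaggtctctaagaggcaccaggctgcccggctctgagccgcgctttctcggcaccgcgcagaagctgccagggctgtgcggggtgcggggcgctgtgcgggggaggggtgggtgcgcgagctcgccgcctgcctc
Gria4, chr9:4796235-4796484, minus strand: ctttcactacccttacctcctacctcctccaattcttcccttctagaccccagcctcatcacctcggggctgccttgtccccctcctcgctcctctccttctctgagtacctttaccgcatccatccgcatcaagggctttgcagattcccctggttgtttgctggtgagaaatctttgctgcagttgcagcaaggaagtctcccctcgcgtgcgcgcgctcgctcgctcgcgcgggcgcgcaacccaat
Grin2c, chr11:115267244-115267493, minus strand: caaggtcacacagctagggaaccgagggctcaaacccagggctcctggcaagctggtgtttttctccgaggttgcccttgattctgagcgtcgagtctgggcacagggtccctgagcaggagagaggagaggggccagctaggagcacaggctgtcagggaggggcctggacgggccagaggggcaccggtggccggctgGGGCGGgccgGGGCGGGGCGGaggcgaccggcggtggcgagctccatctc
The Grin1 and Gria2 stretches had GC contents of 58.8% and 64.8% and held 27 and 19 CpG. The Gria4 and Grin2c stretches, which had no peak, had GC contents of 58.8% and 68.8% and held 16 and 15 CpG. The 15 capital letters in Gria2 match the RE1 element on the opposite strand. The capitals in Grin2c are 3 matches to the GC box bound by SP and KLF factors, and 2 of them overlap by 1 base.

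By the GENCODE start sites, Grin2d had promoter peaks only at internal ones. It encodes GluN2D, a subunit of slowly deactivating NMDA receptors, and lies at chr7:45831883-45878378 on the minus strand. No peak lay within 1 kb of its outermost start site, and the nearest one was 4187 bp away in replicate 1 and 4767 bp away in replicate 2. At the start site at position 45867129, replicate 1 had a peak with a score of 92 (chr7:45866116-45866265) and replicate 2 a peak with a score of 71 (chr7:45866296-45866445). These peaks do not overlap, so neither counts as shared, but both lie in 1 hotspot of 982 bp in replicate 1 and 1 of 984 bp in replicate 2. The RefSeq start site of the gene, at position 45866681, lies in these hotspots as well. A further peak near this start site scored 30 in replicate 2 alone. At the start site at position 45870429 a shared peak scored 31 in replicate 1 and 39 in replicate 2. Stronger shared peaks 4.77 to 5.59 kb from the outermost start site, with scores of 88 to 109 in replicate 1 and 74 to 118 in replicate 2, also lie inside the Grin2d gene body, but at the promoter of Kdelr1, a neighbouring gene for a receptor that returns proteins to the endoplasmic reticulum.

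Gria3, on chromosome X at 41400854 to 41678601, encodes the GluA3 subunit and was the 1 member whose promoter differed between the libraries. Replicate 1 had a peak with a score of 36 at chrX:41400716-41400865, 63 bp upstream of the outermost start site, at percentile 31.5. Its hotspot had a −log10 q of 2.07, against a lowest value of 1.30 in the list. Replicate 2 had neither a peak nor a hotspot there, and its peak nearest to that start site was 157 kb away.

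Counted over the whole windows, Grin2c, Grin2d and Grin1 stood at the top with 31, 28 and 23 shared peaks, and Gria2 followed with 13. Gria3 and Gria4 had 2 each, Gria1 and Grin2b had 1 each, and Grin2a had none. In replicate 1 the windows held 41 peaks at Grin2c, 34 at Grin2d, 29 at Grin1, 14 at Gria2, 7 at Gria3 and at Grin2b, 3 at Gria4, 1 at Gria1 and none at Grin2a. In replicate 2 they held 43 peaks at Grin2c and at Grin2d, 38 at Grin1, 14 at Gria2, 3 at Gria3 and at Gria4, 1 at Gria1 and at Grin2b, and none at Grin2a. The first 3 genes were ahead of Gria2 in both libraries, and Gria2 ahead of the other 5. Within the first 3 and within the last 5, neighbours in the order differed by at most 7 peaks in a library, and some were level in 1 library and not in the other. Over all 9 windows, 101 of 136 peaks of replicate 1 were shared (74.3%, 95% Wilson interval 66.3% to 80.9%), as were 101 of 146 peaks of replicate 2 (69.2%, 61.3% to 76.1%). These intervals cover counting error only. They take the peaks as independent, though many lie close together in a few windows, so they may be too narrow.

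**Figure D1:**
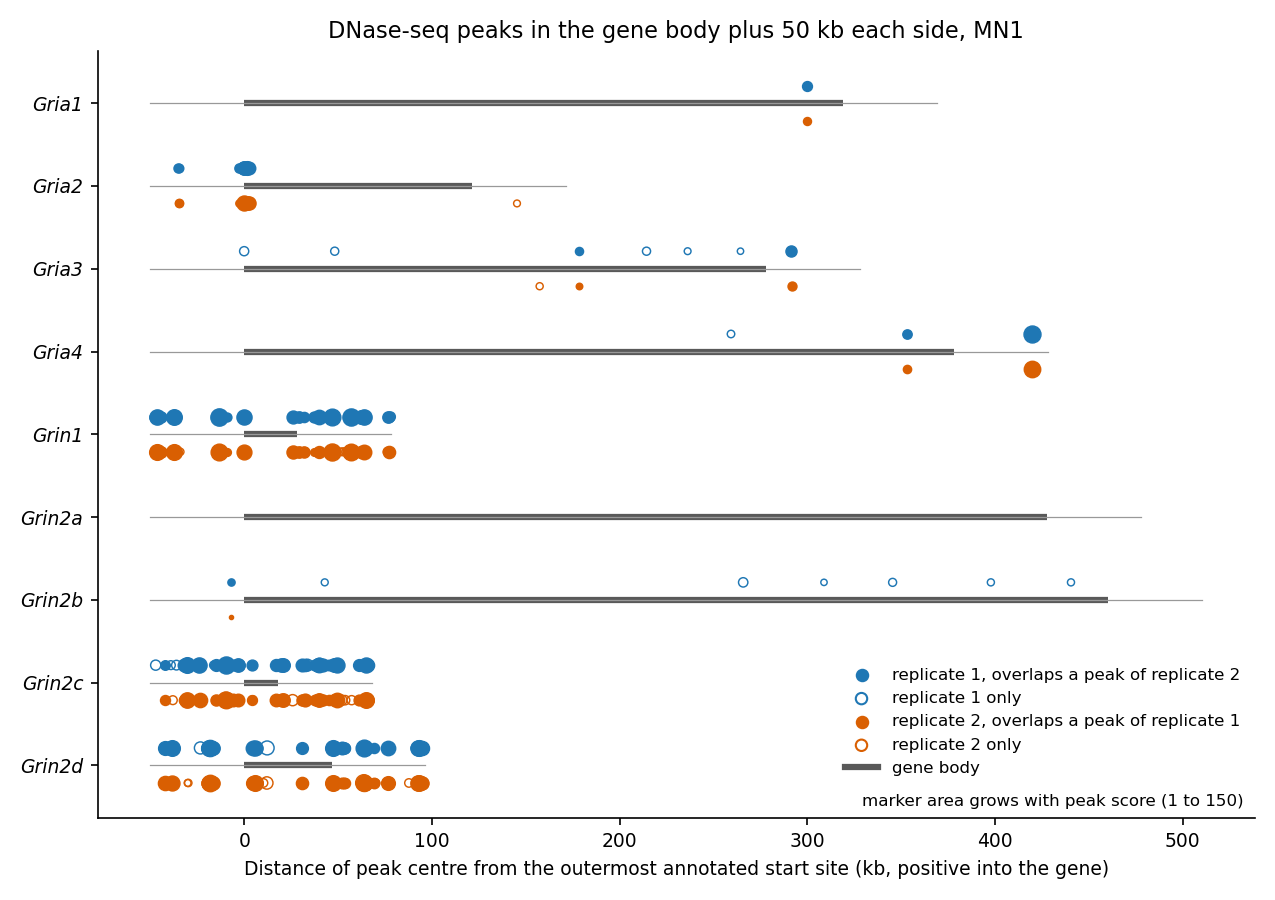
Peaks of each library along the 9 receptor genes, by distance from the outermost start site in kb. Thick lines are gene bodies, thin lines the windows of 50 kb on each side, filled circles peaks that overlap one of the other library and open circles peaks of 1 library; circles overlap where peaks are close. Peaks crowd the windows of Grin1, Grin2c and Grin2d, gather at the start of Gria2, and are sparse or missing along the other 5 genes.

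The windows of Grin1, Grin2c and Grin2d, 393 kb of 2977 kb, held 82 of the 101 shared peaks (81.2%), and the other 6 windows, 2584 kb, held 19. Most of the 82 lay at promoters or in bodies of neighbouring genes, and which gene they act on was not measured. At Grin1, 18 of 23 shared peaks lay at promoters of other genes, with 13 other genes having a promoter in the window, and the strongest was at Man1b1, a mannosidase gene, with scores of 146 and 136. At Grin2d, 21 of 28 lay at promoters of other genes, the strongest at Cyth2 with scores of 136 and 125. At Grin2c, 21 of 31 lay inside the bodies of neighbours such as Tmem104 and Fads6, and 5 at promoters of neighbours, led by Fdxr, a mitochondrial reductase gene, with scores of 142 and 132. Their own gene bodies held 3 shared peaks in Grin1, 2 in Grin2c and 5 in Grin2d, of which 3 were those at the Kdelr1 promoter. Over the 9 windows, 10 shared peaks lay at a promoter of the receptor gene itself, 3 in an exon, 6 in an intron, 45 at a promoter of another gene, 26 in another gene body and 11 between genes.

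**Figure D2:**
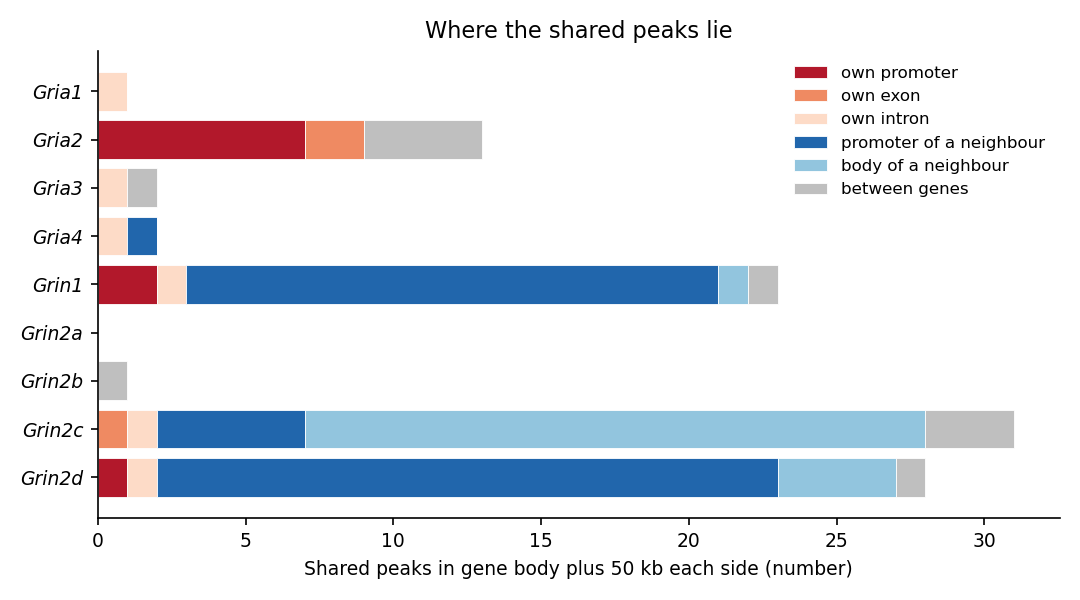
Shared peaks in the window of each receptor gene by position, as numbers of peaks. Blue bars, which stand for promoters and bodies of neighbouring genes, make up most of the bars of Grin1, Grin2c and Grin2d, while red and orange bars, which stand for the gene itself, make up most of the bar of Gria2. Exon peaks of Gria2 lie in exons of retained-intron transcripts.

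Inside introns, Grin1 and Grin2d each had 1 shared peak of middling to high rank. The Grin1 peak, near the end of the gene and 26.1 kb from the start site, had the same position in both libraries and scores of 78 in replicate 1 and 80 in replicate 2. The Grin2d peak, 30.8 kb from the outermost start site, scored 64 and 69. Grin2c, which encodes the GluN2C subunit of cerebellar granule cells, had no peak within 1 kb of a start site, and the nearest was an intronic one 2258 bp away with scores of 53 and 43. It also had an exonic peak 17.0 kb inside the gene with scores of 66 and 73. These peaks, and the lone peaks of Gria1 and Gria4 described next, are shown because they are the shared peaks inside these genes that lie away from promoters. The sequences are from GRCm38, 5′ to 3′ on the strand of the gene, at the positions in replicate 1.
Grin1 intron, chr2:25292976-25293125, minus strand: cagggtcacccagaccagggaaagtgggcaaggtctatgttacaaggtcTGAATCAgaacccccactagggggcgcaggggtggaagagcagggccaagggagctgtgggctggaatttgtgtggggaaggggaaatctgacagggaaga
Grin2d intron, chr7:45847456-45847605, minus strand: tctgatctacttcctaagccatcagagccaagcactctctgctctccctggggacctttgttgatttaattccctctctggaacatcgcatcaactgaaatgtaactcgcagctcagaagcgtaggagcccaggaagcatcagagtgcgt
Grin2c exon, chr11:115250176-115250325, minus strand: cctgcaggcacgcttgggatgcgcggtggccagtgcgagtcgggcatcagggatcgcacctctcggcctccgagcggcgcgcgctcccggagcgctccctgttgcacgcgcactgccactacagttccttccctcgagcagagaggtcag
Grin2c intron, chr11:115263096-115263245, minus strand: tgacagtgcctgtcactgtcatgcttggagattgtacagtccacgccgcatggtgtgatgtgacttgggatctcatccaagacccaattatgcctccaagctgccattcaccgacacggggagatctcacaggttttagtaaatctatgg
Gria1 intron, chr11:57310916-57311065, plus strand: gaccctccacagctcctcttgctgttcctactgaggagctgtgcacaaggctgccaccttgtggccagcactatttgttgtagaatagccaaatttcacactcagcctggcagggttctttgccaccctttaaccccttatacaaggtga
Gria4 intron, chr9:4443016-4443165, minus strand: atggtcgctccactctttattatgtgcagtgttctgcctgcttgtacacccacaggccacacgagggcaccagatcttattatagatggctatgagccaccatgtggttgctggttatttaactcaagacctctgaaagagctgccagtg
The capitals in the Grin1 peak mark its match to the AP-1 motif, and the other 5 peaks held no match to the motifs searched. The Grin2c exonic peak was the richest in CpG, with 17 in its 150 bases, against 0 to 4 in the other 5.

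The 5 longest members, Gria1, Gria3, Gria4, Grin2a and Grin2b, held 6 shared peaks in 2363 kb of windows. Their bodies run from 278 kb to 460 kb, and none had its promoter open in both libraries by this measure. A limit of 250 kb, which was chosen after the values were seen, separates them from the other 4. Of the 737 genes over that length, 54.3% had shared promoter accessibility of that kind. All 5 had at most 2 shared peaks, as did 30.3% of genes over 250 kb and 24.2% of all genes. The median over those long genes was 11 shared peaks per window, the same as over all genes.

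Grin2a, which encodes GluN2A, a subunit that becomes prominent in the brain after birth, had no peak at all. It spans chr16:9567898-9995560, and its window of 528 kb held neither a peak nor a hotspot in either library. The peaks nearest to its outermost start site lay 77871 bp and 77851 bp away in replicates 1 and 2. Windows without any peak made up 9.8% of all genes. Of the 308 genes at least as long as Grin2a, itself counted, 20 had none, and the median over the 308 was 7.5 shared peaks.

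Grin2b encodes GluN2B, the subunit that prevails in the developing forebrain, and is the longest member at chr6:135713233-136173511. Replicate 1 had 6 peaks in the gene body, with scores of 14 to 38, and replicate 2 had none. Its single shared peak lay 7.24 kb upstream of the outermost start site in replicate 1, with a score of 20 there and of 2 in replicate 2. The score of 2 is at percentile 0.054 of replicate 2, close to the bottom of the list. Of the 271 genes at least as long, Grin2b itself counted, 19 had no peak in their window.

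Gria1 encodes GluA1, the subunit whose insertion into synapses accompanies long-term potentiation, and lies at chr11:57011387-57330244. Its only peak in either library was the intronic one 299.6 kb from the outermost start site, with scores of 43 in replicate 1 and 26 in replicate 2. Gria4, at chr9:4417896-4796234, encodes GluA4, a subunit with rapid kinetics. It had 3 peaks in each library, and the strongest, with scores of 140 and 131, lay at the promoter of Msantd4, the 1 neighbour with a promoter in the window. Its shared intronic peak had the same position in both libraries, 353 kb from the start site, with scores of 38 and 28. Gria3 had shared peaks 178 kb inside the gene (scores of 27 and 15) and 291 kb from the start site, beyond the end of the gene (scores of 56 and 34), and 4 intronic peaks in replicate 1 and 1 in replicate 2 that were not shared.

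The median density of shared peaks was 0.529 per 100 kb over the 9 windows, against 7.78 over all protein-coding genes. By gene the values were 26.3 at Grin2c, 19.1 at Grin2d, 18.0 at Grin1, 5.87 at Gria2, 0.529 at Gria3, 0.418 at Gria4, 0.239 at Gria1, 0.178 at Grin2b and 0 at Grin2a. Grin2c had a density at or above that of 94.4% of all genes, Grin2d of 84.9%, Grin1 of 82.5% and Gria2 of 41.7%. The other 5 lay between 16.4% and 17.4%. Of these, 16.4% is the value of Grin2a, whose density was 0, and is the share of all genes without a shared peak. Density was lower among longer genes, and the members are long, with a median of 278 kb against 17.4 kb over all genes. Among genes at least as long as each member, itself counted, the median density was 4.17 for Gria2. It was between 0.665 and 1.51 for the 5 longest, so these 5 lay below the median of genes of their own length or longer.

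**Figure D3:**
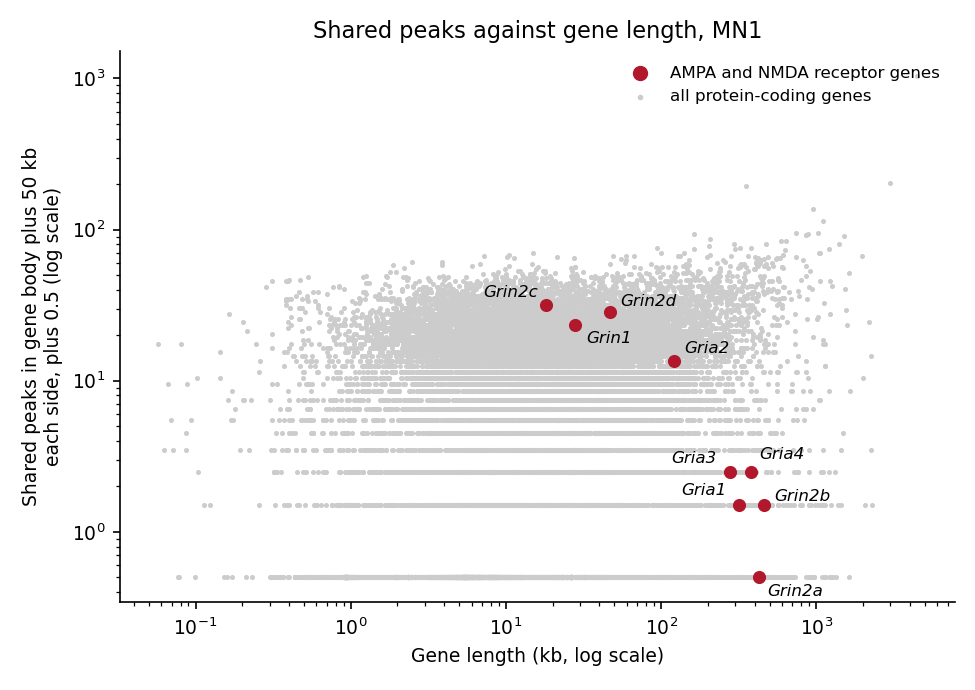
Shared peaks in the window against gene length, both on log scales, with 0.5 added to the number of peaks so that genes with none can be drawn. Grey points are all protein-coding genes and red points the receptor genes. Grin2c, Grin1, Grin2d and Gria2 lie within or above the middle of the grey cloud, and the 5 longest members lie near its lower edge.

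Promoter peaks are more frequent at promoters rich in CpG, and 6 members lay in decile 5 or decile 7 of the CpG observed/expected ratio over all genes. The ratio was taken within 1 kb of the outermost start site. Grin1 and Gria2, with peaks, had ratios of 0.614 and 0.560, and Grin2c, without one, had 0.558. In their decile, 84.4% of genes had a promoter with peaks in both libraries. Gria3, Gria4 and Grin2b, with ratios of 0.357 to 0.460, lay in a decile where 66.0% did. Grin2a had the highest ratio of the 9, 0.644, in a decile where 86.8% of genes had a peak, and had none. Gria1 (0.241) lay in a decile with 30.9%. Grin2d had the lowest ratio, 0.173, in a decile with 16.0%, and had promoter peaks, though at start sites where this ratio was not taken. Peaks of both libraries were present at the promoters of 3 members, and the shares of their deciles, summed over the 9, come to 5.85 genes.

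**Figure D4:**
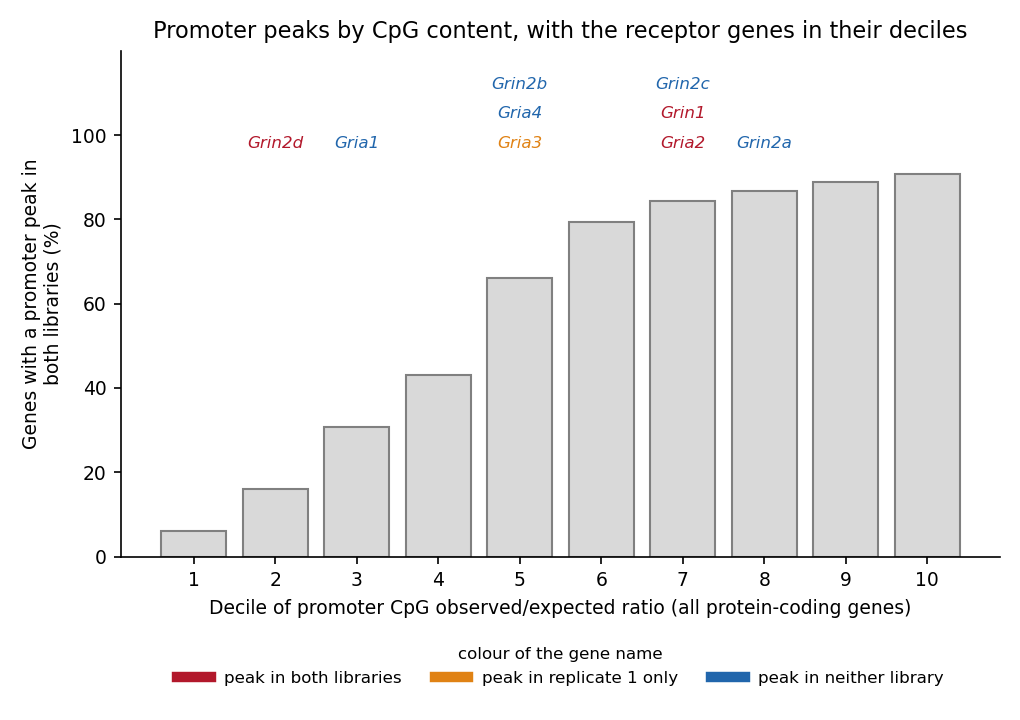
Share of all protein-coding genes with a promoter peak in both libraries, in percent, by decile of the promoter CpG observed/expected ratio, with the name of each receptor gene above the bar of its decile. Grin2a and Grin2c carry the colour for no peak above bars of 86.8% and 84.4%, and Grin2d the colour for a peak in both libraries above a bar of 16.0%.

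Matches to RE1, the element bound by the repressor REST, which silences neuronal genes outside the nervous system, were present near the start sites of 3 of the 9 members. The search took the element's conserved blocks CAGCACC and GGACAG with 2 free bases between them, allowed 1 mismatch over the 13 letters, and read both strands within 1 kb of the outermost start site. By this search 1.44% of all protein-coding genes had a match (317 of 21938). The sites are written on the strand that carries the blocks, with the element in capitals and 4 bases on each side.
Grin1, chr2:25319018-25319032, minus strand: gcttCAGCACCTCGGACAGcacc
Gria2, chr3:80802991-80803005, plus strand: atttTAGCACCGCGGACAGcgct
Grin2c, chr11:115267672-115267686, plus strand: ctgcCAGCACCCAGGAGAGacag
The Grin1 match was exact in its 13 letters and lay 162 bp inside the gene, in an annotated UTR. It fell in hotspots of both libraries but in no peak. The Gria2 match had 1 mismatch and lay 163 bp upstream, in a peak of replicate 1 with a score of 79 and in hotspots of both libraries. The Grin2c match had 1 mismatch and lay 436 bp upstream, in no peak or hotspot. A match is a run of letters, and whether REST binds there in MN1 was not measured.

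The other 6 motifs were read with no mismatch on both strands of the same regions, and none of them contains another. The GC box GGGCGG, bound by SP and KLF factors, was in 6 of 9 member promoters, against 66.3% of all genes. CAGCTG, an E-box read by basic helix-loop-helix factors, was in 7 of 9, against 62.1%. The NRF1 element GCGCATGC was in 2 of 9 (Gria3 and Grin1), against 7.43%. The AP-1 element TGANTCA was in 1 of 9 (Gria1), against 37.3%. The cyclic AMP response element TGACGTCA was in none, against 4.02%, and the ETS element CCGGAAGT in none, against 8.58%.

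Genes whose products act with these receptors were read from 5 lists. Of 67 related genes matched in the annotation, 42 had promoter peaks in both libraries (62.7%), 5 in 1 library and 20 in neither. Postsynaptic scaffold and signalling genes stood at 19 of 22 (86.4%). They included Dlg4, which encodes the scaffold PSD-95, Dlg2 and Homer1, also scaffold genes, and Camk2b, a subunit of the calcium-dependent kinase CaMKII. Homer2 and Akap5 had no promoter peak. AMPA receptor auxiliary genes stood at 11 of 16 (68.8%), led by Olfm1, Cpt1c, Cacng7 and Shisa7, with none at Cnih3 and Shisa6. Cacng7 encodes a transmembrane regulator of AMPA receptors, and Cnih3 a cornichon protein that binds them.

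Of the 9 other ionotropic genes, Grik5, a kainate receptor subunit, had a promoter peak in both libraries, at a mean percentile of 89.2, and Grik4 had one in replicate 1 alone. Grin3a, Grin3b, Grik1 and Grik2 were among the 7 with none. Of the 8 metabotropic receptor genes, 4 had one, among them Grm2 and Grm4, and 4 had none, among them Grm3 and Grm5. Genes of glutamate transport and the glutamine cycle stood at 7 of 12 (58.3%), near the 59.2% of all protein-coding genes. Promoters of Glul, which encodes glutamine synthetase, and of the glutamine transporter genes Slc38a1 and Slc38a2 were among the highest in rank. The vesicular transporter genes Slc17a6 and Slc17a8 and the membrane transporter genes Slc1a1, Slc1a3 and Slc1a6 had no promoter peak. In the same families, the vesicular transporter gene Slc17a7 and the membrane transporter genes Slc1a2 and Slc1a7 had one in both libraries. All these lists are short, and no test was run between them.

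**Figure D5:**
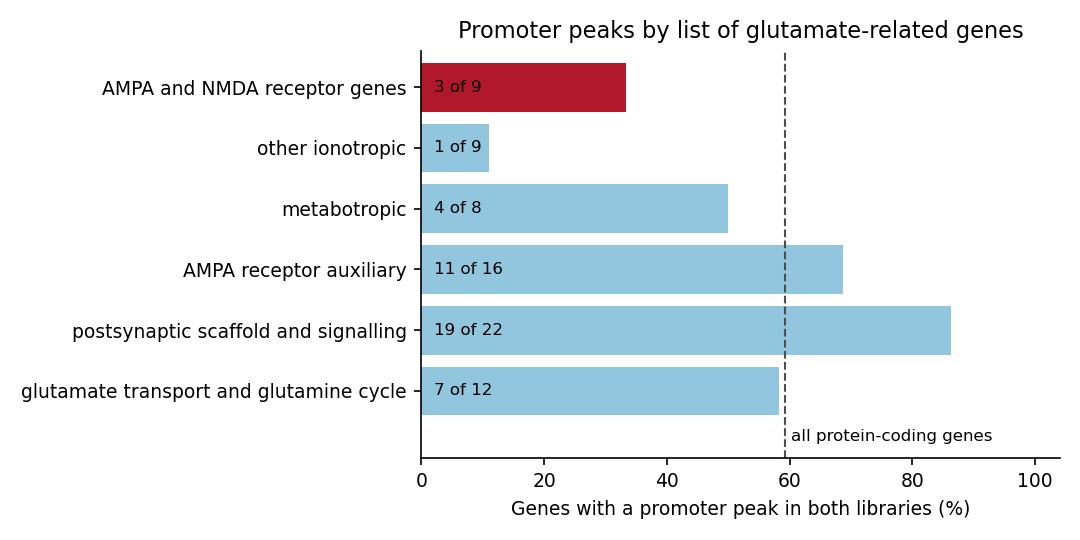
Share of genes with a promoter peak in both libraries, in percent, for the AMPA and NMDA receptor genes (red) and for 5 lists of related genes (blue), with the numbers of genes printed in the bars. The dashed line marks all protein-coding genes at 59.2%. The receptor genes, with 3 of 9, and the other ionotropic receptor genes, with 1 of 9, have the shortest bars.

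Peaks found in only 1 library ranked lower than shared ones in these windows. The 101 shared peaks of replicate 1 had a median percentile of 69.1, against 31.5 for its 35 single-library peaks. In replicate 2 the medians were 67.8 for shared peaks and 39.0 for 45 single-library peaks. Over the whole genome, too, higher-scoring peaks were shared more often. There 67.1% of replicate 1 peaks and 70.2% of replicate 2 peaks were shared. With only peaks at or above the median score of their list, 79.3% and 82.3% were. Of the single-library peaks, 8 of 35 in replicate 1 and 15 of 45 in replicate 2 overlapped a hotspot of the partner library. The most single-library peaks within 10 kb were 7, in replicate 2 at chr2:25264936-25273545 in the Grin1 window, where 6 lay at the neighbours Tprn, Anapc2 and Ssna1 and 1 between genes. The Grin2c window held up to 5 within 10 kb in replicate 2, and the other windows 4 or fewer in either library. Gria3 and Grin2b had the lowest shares of shared peaks in replicate 1, 28.6% of 7 and 14.3% of 7, and Gria2 had 92.9% of 14.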

How the data were processed

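DNase-seq peaks and hotspots of 2 libraries of MN1 were used as the authors deposited them, on mm10. Each list came from its own library, per the notes supplied with the files, and neither the caller with its threshold nor the aligner is given in the sources used here. Deposited peaks carry a score of the authors' making with no stated normalization. Deposited hotspots carry q-values as −log10, which run upward to a cap of 100, with 1.30 as the smallest. Read depth is unknown, so the only intervals are those on numbers of peaks.

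Duplicate lines were dropped, and the autosomes, X and Y were kept. Genes and start sites came from GENCODE M21 on GRCm38, the assembly of mm10, and promoter sequences from RefSeq on GRCm38.p6. A peak that overlapped the 1 kb around a start site was placed at a promoter, and the other peaks in a window were placed by their centre in an exon, an intron, another gene or between genes. Motif matching was checked on made-up sequences. Python 3.11.15, NumPy 2.4.6 and SciPy 1.17.1 were used. Genes of the related lists were named by a rule: up to 4 with promoter peaks in both libraries, by mean percentile, and up to 4 with none, in list order. A few genes that it picks are left out here, and the remaining glutamate transporter genes of the Slc17a and Slc1a families were added. Genes and peaks of the 9 receptor windows were named for their place in the description. The 9 members, the lists, the motifs and the alternatives were chosen with earlier results of these data known. No test was run, since there is 1 group and the members were named, not sampled.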

Additional observations from a re-analysis of the deposited data

How the results depend on the processing

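The number of receptor genes with promoter peaks in both libraries was 3 with promoters of 500 bp on each side, with peaks at or above the median score of their list and with hotspots in place of peaks. The share of all genes was 57.6%, 56.0% and 59.4% under these settings. The number was 4 with 2.5 kb on each side, which added Grin2c, against 62.9% of all genes, and 2 at the outermost start site alone, which left out Grin2d, against 54.8%. With 1 library at a time it ranged from 3 to 4, against 60.9% to 61.1% of all genes, and the fourth gene was Gria3, in replicate 1. Of the related genes, 34 to 47 had a promoter peak under these settings, and 44 to 45 with 1 library at a time. The count of 101 shared peaks in the windows depends on their width: it was 19 with no flank, 61 with 20 kb and 171 with 100 kb. Over all genes the median per window was 11, and 2, 6 and 18 with these flanks. The count in the member windows was 65 with peaks at or above the median score and 46 with promoter peaks left out. The medians per window over all genes were then 6 and 5. Single libraries held 136 to 146 peaks in the member windows, against medians of 15 to 16 per window over all genes. The median density, 0.529 per 100 kb, was 0.794 in replicate 2 alone and 1.85 in replicate 1 alone, against medians over all genes of 10.9 and 11.3. It was 0.209 to 0.629 under the other settings, against 4.01 to 7.93 over all genes. The share of replicate 2 peaks that were shared, 69.2%, was 79.0% at or above the median score and 78.8% against hotspots of the other library. Over all peaks of replicate 2 these shares were 82.3% and 77.1%. In replicate 1 the share of 74.3% became 78.3% and 80.1% under these settings, against 79.3% and 72.1% over all its peaks. The causes of these shifts, other than the windows and lists being wider or narrower by construction, were not tested. No paired analysis was possible because there is 1 group and no test. Read depth is unknown, so an absent peak may be a site too weak to be called.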
